A study of Mus musculus with 20 samples.

Results

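The Nrf2 antioxidant response was followed through 10 genes in mouse colon: Nfe2l2, which encodes the transcription factor Nrf2, and 9 genes for antioxidant proteins, namely Nqo1, Hmox1, Gclc, Gclm, Txnrd1, Srxn1, Gpx2, Slc7a11 and Sod2. The genes were chosen by name, although with earlier results of these data known, and all 10 were found among the 32945 genes that received a value. The value of a gene was the sum over its annotated transcripts in FPKM, that is, the number of fragments scaled to transcript length and to library size. Levels of different genes are therefore on one scale. A sum can still miss part of a gene's signal, since transcripts without a gene name were left out.

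Colon tissue came from 20 male C57BL/6 mice, 1 library per mouse, in 4 groups of 5. Control mice received distilled water by gavage for 91 days. PZH mice received Pien Tze Huang (PZH), a herbal and animal-derived Chinese formula, by gavage at 250 mg/kg/d for the same time. AOM/DSS mice, labelled Model, received water by gavage, an injection of 12.5 mg/kg azoxymethane (AOM), a colon carcinogen, and cycles of 2% dextran sodium sulfate (DSS), an agent that injures the colon epithelium, in the drinking water for 5 days. PZH + AOM/DSS mice, labelled Model + PZH, received AOM, DSS and PZH together. The labels do not say whether a sample was tumor or the tissue beside it, and the age of the mice is not given in the sources used here.

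In resting cells the adaptor Keap1 holds Nrf2 in the cytoplasm and delivers it, through the Cul3 ubiquitin ligase, for degradation. Electrophiles and oxidants modify Keap1, Nrf2 then accumulates, pairs with a small Maf protein and binds antioxidant response elements. Because this control acts on the protein, the amount of Nfe2l2 RNA is not a measure of Nrf2 activity. The target genes make glutathione, reduce thioredoxin and peroxiredoxins, degrade heme and reduce quinones, and in the gut they are best known as a defense against oxidants and electrophiles at the mucosal surface.

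Short stretches ahead of the start sites show which letters known to regulate these genes stood in the RefSeq promoters (GRCm38.p6). These windows run from 250 bases before to 50 bases after a start, and 8 of the 10 genes had one. The core of the antioxidant response element was searched as TGACNNNGC on both strands and stood in the windows of 4 of these 8 genes, in those of 8 of 25 other known Nrf2 targets and in 12.4% of all 32851 windows, of which a gene can have several. It lay upstream of the start in Nfe2l2, Gclm and Txnrd1, and its letters are in capitals here.
Nfe2l2 (chr2:75704875-75704913, minus strand): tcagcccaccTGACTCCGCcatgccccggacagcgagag
Gclm (chr3:122245403-122245451, plus strand): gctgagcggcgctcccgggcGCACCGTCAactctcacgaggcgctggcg
Txnrd1 (chr10:82859094-82859142, plus strand): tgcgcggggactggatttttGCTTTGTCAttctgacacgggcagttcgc
The Txnrd1 stretch lies within the second of the gene's 3 windows, upstream of the start of a transcript that held little of the signal (ENSMUST00000020484, see the values of Txnrd1). In Srxn1 the core stood downstream of the start at position 29, and upstream the window held 2 copies of TGAGTCA, the AP-1 site that also forms part of extended antioxidant response elements. At least 1 copy stood in the windows of 4 of the 25 other targets and in 5.2% of all windows, and both copies are in capitals.
Srxn1 (chr2:152105402-152105505, plus strand): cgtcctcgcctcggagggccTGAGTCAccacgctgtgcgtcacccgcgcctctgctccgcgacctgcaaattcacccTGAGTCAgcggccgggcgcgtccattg
The amino acid response element TGATGCAA, a site bound by Atf4 when amino acids are short, was found in Slc7a11 alone among the 8 genes, in none of the 25 other targets and in 0.895% of all windows. The window held 1 copy on each strand, both in capitals.
Slc7a11 (chr3:50443633-50443699, minus strand): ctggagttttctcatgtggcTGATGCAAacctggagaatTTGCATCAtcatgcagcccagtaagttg
A match of letters is a description and does not show that a factor was bound in these mice.

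The libraries held 15.4 to 19.5 M fragments, read from the step between low values, and only 23.8 to 44% of low values fell on whole steps, so the absolute depth is uncertain. The extraction protocol in the labels names the abdominal aorta, while the tissue label is colon. Sums over 10 markers of colon epithelium were high in every mouse, at 2927 to 7308 FPKM, but single markers were not. Epcam was listed at 0 in all Control mice, in 3 PZH, 3 AOM/DSS and 2 PZH + AOM/DSS mice. Krt8 ranged from 0.0706 FPKM in a PZH mouse to 3071 FPKM in a Control mouse. Control mice 17 and 50 stood apart with sums of 342 and 295 FPKM over 7 markers of squamous epithelium, against 0.824 to 1.64 FPKM in the other 3 Control mice and 12.7 to 36.6 FPKM in AOM/DSS mice. Values without these libraries are given where a result rests on them.

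At rest the genes spanned a wide range of levels. In Control mice Gpx2 was the highest of the 10 with a median of 132 FPKM, followed by Txnrd1 with 63.4 and Nfe2l2 with 63.1. Srxn1, Gclc, Sod2, Nqo1 and Gclm followed with medians between 32.5 and 17.1 FPKM, and neighbours in this order overlapped in range. Hmox1 had a median of 3.43 FPKM, and Slc7a11 was the lowest with 0.73 FPKM. The plot of levels by mouse shows all 200 values.

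**Figure D1:**
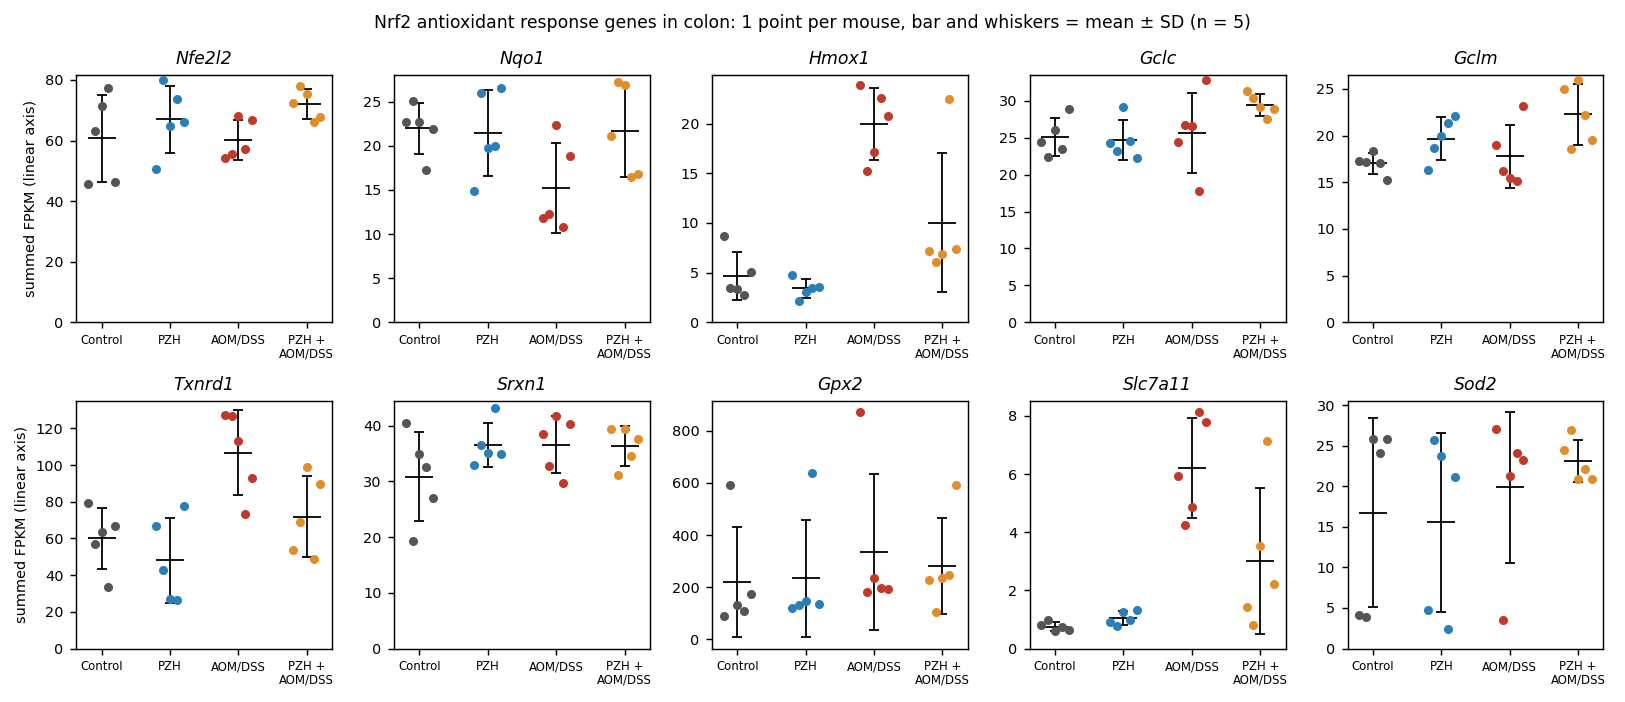
Summed FPKM (linear vertical axis) of each of the 10 genes in 20 mice, 5 per group; each point is 1 mouse, the bar is the group mean and the whiskers are 1 SD. Hmox1 and Slc7a11 lie higher in all 5 AOM/DSS mice than in any Control mouse, PZH + AOM/DSS mouse 35 lies apart from the other 4 of its group in both genes, and Gpx2 and Sod2 each hold single mice far from the rest.

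The comparison of AOM/DSS with Control mice asks which of these genes differ with carcinogen and colitis. Of the 10 genes, 3 rose and none fell at an adjusted P under 0.05: Hmox1, Slc7a11 and Txnrd1. Among all 15802 genes tested, 23.7% were called in this comparison, 2596 higher and 1143 lower, so the share of the 10 genes was close to that of genes at large. Groups did not overlap for 2 of the 10 genes, against 18.5% of all genes. By the criteria of the study, a fold change over 2 and an unadjusted P under 0.05, these same 2 were called, against 7.71% of all genes. The fold change was taken here, and in the other comparisons, as a difference over 1 on the log2(FPKM + 1) scale. The median difference over the 10 genes was 0.33 on the log2(FPKM + 1) scale, against 0.09 over all genes. In bulk tissue, fewer cells of a type and less RNA per cell cannot be told apart.

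Hmox1 (ENSMUSG00000005413, chr8:75093621-75100589 of GRCm38) encodes heme oxygenase-1, which degrades heme to biliverdin, iron and carbon monoxide and is also expressed by macrophages that take up red cells. Its levels were 2.73, 3.36, 3.43, 5.07 and 8.65 FPKM in Control mice. In AOM/DSS mice they were 15.3, 17.2, 20.8, 22.6 and 23.9 FPKM. Every AOM/DSS mouse was above every Control mouse, and the highest Control value belonged to mouse 17. The means were 4.65 ± 2.40 (SD, n = 5) and 19.9 ± 3.63 FPKM (SD, n = 5), a ratio of 4.29. The difference was 1.96 on the log2(FPKM + 1) scale (SE 0.25, limma adjusted P = 3.51e-04). Without Control mice 17 and 50 it was 2.31 (adjusted P = 1.30e-04).

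Slc7a11 (ENSMUSG00000027737, chr3:49892526-50443614) encodes the cystine-glutamate exchanger that brings in cystine, the source of cysteine for glutathione. The Control values were 0.587, 0.642, 0.73, 0.825 and 0.986 FPKM. The AOM/DSS values were 4.26, 4.86, 5.95, 7.79 and 8.14 FPKM, so the groups were clearly separate. Means were 0.754 ± 0.158 (SD, n = 5) and 6.20 ± 1.72 FPKM (SD, n = 5), which is the largest ratio among the 10 genes at 8.23. The difference was 2.01 (SE 0.17, adjusted P = 2.77e-05), a scale that understates the ratio of a gene near 1 FPKM, and with a pseudocount of 0.1 it was 2.86.

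Gclc and Gclm encode the catalytic and the modifier subunit of glutamate-cysteine ligase, the enzyme that uses the cysteine for the first step of glutathione synthesis. Neither was called in AOM/DSS against Control mice. Gclc ranged from 22.3 to 28.9 FPKM in Control and from 17.7 to 32.8 in AOM/DSS mice, a difference of 0.01 with a 95% confidence interval from -0.31 to 0.34. Gclm ranged from 15.2 to 18.4 FPKM and from 15.2 to 23.1, a difference of 0.05 (-0.23 to 0.32). Both ranges of AOM/DSS mice extended past the highest Control mouse.

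Txnrd1 (ENSMUSG00000020250, chr10:82833951-82897712) encodes cytosolic thioredoxin reductase, which keeps thioredoxin reduced with NADPH. It measured 33.7, 57.2, 63.4, 66.5 and 79.1 FPKM in Control mice. In AOM/DSS mice it measured 73.5, 92.7, 113, 127 and 127 FPKM, and the groups overlapped by 1 mouse on each side. The difference was 0.84 (SE 0.23, adjusted P = 0.022). It missed the threshold when values were rescaled by the median of ratios (0.73, adjusted P = 0.0518) and when AOM/DSS mouse 23 was left out (0.77, adjusted P = 0.0554). Srxn1, the sulfiredoxin that repairs overoxidized peroxiredoxins, ranged from 19.3 to 40.4 FPKM in Control and from 29.7 to 41.7 FPKM in AOM/DSS mice, and was not called (0.27, SE 0.18, adjusted P = 0.332).

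Most of the Txnrd1 signal came from 1 of its 7 transcripts with a value above 0, the protein-coding ENSMUST00000219442. Its share of the gene was 65.1 to 90.4% in Control and 82.3 to 90.1% in AOM/DSS mice. It was low in 3 mice, with 19.7 and 16.6% in PZH mice 27 and 46 and 23.6% in PZH + AOM/DSS mouse 35. The level of this transcript was 5.35, 4.35 and 11.5 FPKM in these 3 mice, and these were the lowest of the 20 mice. The gene sums of the 3 mice, 27.2, 26.3 and 48.6 FPKM, were the lowest of their groups. The second transcript, the coding ENSMUST00000219962, was at 16.5, 18.3 and 30.5 FPKM in them, its highest levels in the 20 mice, and ENSMUST00000020484 did not exceed 4.53 FPKM in any mouse.

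Nqo1 (ENSMUSG00000003849, chr8:107388225-107403206) encodes the quinone reductase that is the most used marker of Nrf2 activity. It measured 17.3, 22, 22.7, 22.7 and 25.1 FPKM in Control mice. In AOM/DSS mice it measured 10.8, 11.8, 12.2, 18.8 and 22.4 FPKM. It thus lay lower in 3 AOM/DSS mice and within the Control range in the other 2. The difference was -0.55 (SE 0.20, unadjusted P = 0.0185) and missed the threshold (limma adjusted P = 0.0689). With values rescaled by the median of ratios it passed it (-0.66, adjusted P = 0.0424), as it did without AOM/DSS mouse 33 (-0.69, adjusted P = 0.0203). Without the Control mice with squamous markers it missed it by more (-0.53, adjusted P = 0.188). With each mouse left out in turn, the adjusted P ranged from 0.0203 to 0.157, so the call depends on the setting.

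Nfe2l2 (ENSMUSG00000015839, chr2:75675513-75704641) itself measured 45.7, 46.5, 63.1, 71.4 and 77.3 FPKM in Control mice. The AOM/DSS values were 54.1, 55.4, 57.2, 66.8 and 68.1 FPKM and lay within the Control range. The difference was 0.01, with an interval from -0.34 to 0.37. The 2 lowest Control values came from mice 17 and 50, those with squamous markers, and without them the difference was -0.23 (adjusted P = 0.237).

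**Figure D2:**
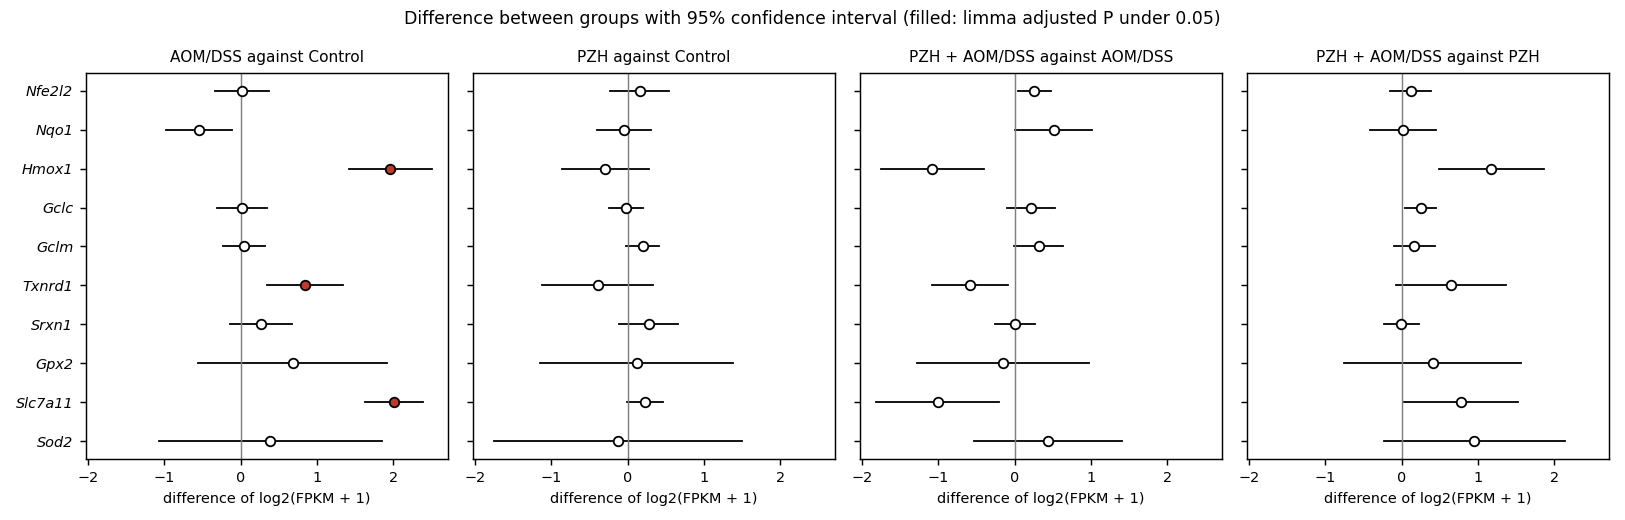
Difference of log2(FPKM + 1) for each of the 10 genes in 4 comparisons (horizontal axis), with its 95% confidence interval; filled points have a limma adjusted P under 0.05. Filled points occur only in AOM/DSS against Control (Hmox1, Txnrd1 and Slc7a11), and Gpx2 and Sod2 have the widest intervals.

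The genes that control Nrf2 were compared as a list of 9, and 1 rose in AOM/DSS mice, where 23.7% of all genes were called. Mafg, a small Maf partner of Nrf2, had means of 9.12 in Control and 18.3 FPKM in AOM/DSS mice (0.98, SE 0.31, adjusted P = 0.0429). The call was lost in 11 of 17 alternatives, among them those without Control mice 17 and 50 (0.63, adjusted P = 0.179), with median-of-ratios scaling (0.87, adjusted P = 0.0707) and with sample quality weights (0.84, adjusted P = 0.0654). Keap1 had means of 18.3 and 18.1 FPKM (0.00, SE 0.13, adjusted P = 0.997). Bach1, which competes with Nrf2 for its sites and represses Hmox1, had means of 7.42 and 11.2 FPKM (0.53, SE 0.45, adjusted P = 0.447).

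Another 31 genes known as Nrf2 targets moved in both directions. In AOM/DSS against Control mice 6 rose, 10 fell and 15 were not called. Of all genes tested 23.7% were called, 2596 higher and 1143 lower. The median difference of the 31 was -0.07, against 0.09 over all genes. Those that rose were Idh1, a cytosolic source of NADPH (0.86, adjusted P = 0.00192), Me1, also a source of NADPH (0.81), the export pumps Abcc4 (0.77) and Abcc1 (0.61), the peroxiredoxin Prdx1 (0.45) and glutathione reductase, Gsr (0.42). Those that fell furthest were the glutathione transferase Gstm3 (-1.82, adjusted P = 0.00194), the carbonyl reductases Cbr3 (-1.65) and Cbr1 (-1.16, adjusted P = 1.73e-04), the peroxiredoxin Prdx6 (-1.39, adjusted P = 5.43e-04) and Ugdh, which makes UDP-glucuronic acid (-1.31). Ugt1a6a, Mgst1, Gstp1, Gstm4 and Txn1 fell by 0.52 to 0.94. Several of these calls were near the threshold. Of 17 alternatives, the call was lost in 12 for Prdx1 (adjusted P up to 0.172), in 10 for thioredoxin, Txn1 (-0.52, adjusted P = 0.0477, up to 0.116), in 10 for Mgst1, in 9 for Me1 and in 5 for Gsr. It was lost in 2 each for Ugdh and Ugt1a6a, and in none for the other 9.

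**Figure D3:**
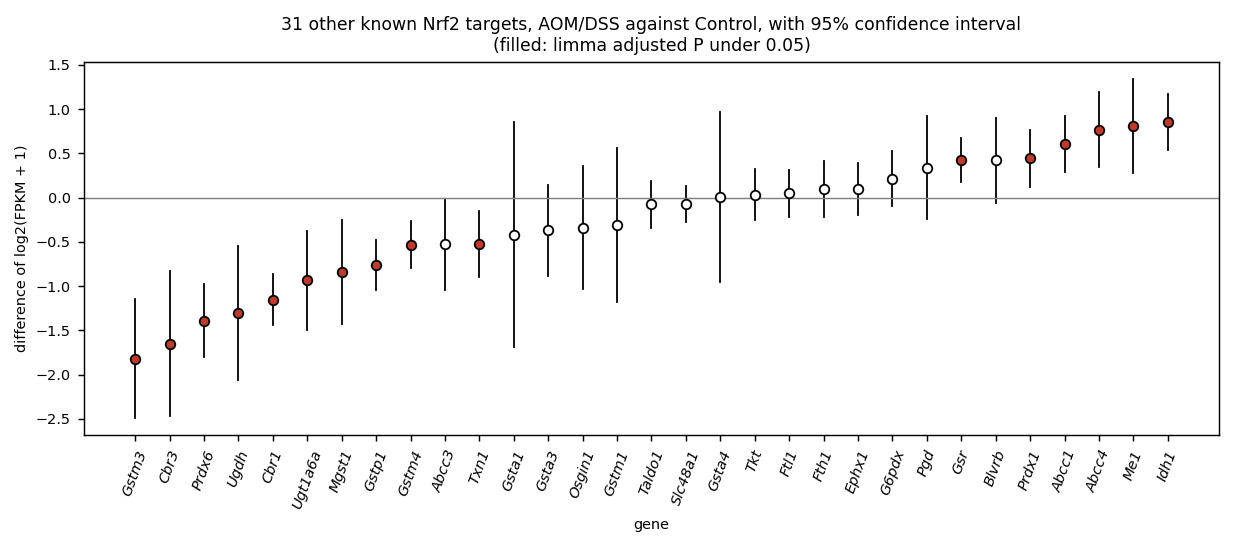
Difference of log2(FPKM + 1) between AOM/DSS and Control mice (vertical axis) for 31 further known Nrf2 targets in order of the difference, with 95% confidence intervals; filled points have a limma adjusted P under 0.05. The filled points split into 10 below 0, led by Gstm3, and 6 above 0, led by Idh1.

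Among 19 further antioxidant enzymes, 1 rose and 1 fell, where 23.7% of all genes were called. Extracellular superoxide dismutase, Sod3, rose from a mean of 8 to 19.2 FPKM (1.18, SE 0.14, adjusted P = 1.93e-04). Cytosolic Sod1 fell from a mean of 339 to 241 FPKM (-0.48, SE 0.11, adjusted P = 0.0105).

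Cell type markers moved with the same groups, in a comparison where 23.7% of all genes were called. Summed over 7 genes, markers of absorptive colonocytes ranged from 3229 to 4173 FPKM in Control and from 441 to 1431 in AOM/DSS mice, and 6 of the 7 fell. Of 7 neutrophil markers tested 6 rose, and the sum over all 8 was 81.0 to 400 FPKM in Control and 242 to 671 FPKM in AOM/DSS mice. Of 9 macrophage markers 3 rose (Cd68, Csf1r and C1qb) and 1 fell (Cd163), and their sum was 294 to 594 and 506 to 676 FPKM. The call was lost in 12 of 17 alternatives for C1qb and in 10 for Cd68, and in none for Csf1r. All 7 smooth muscle markers fell, with sums of 2256 to 5198 and 1001 to 1746 FPKM. Of 7 proliferation markers 1 rose (Mcm2), and of 4 red cell markers tested 1 rose (Alas2). The part of these cell types in the levels of Hmox1, Slc7a11 and Txnrd1 was not tested.

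The comparison of PZH with Control mice asks what PZH does without AOM/DSS. None of the 10 genes was called by limma at an adjusted P under 0.05, and none at an unadjusted P under 0.05, against 0.00645% and 8.84% of all 15496 genes tested. By the study's criteria none was called either, against 0.684% of all genes. The largest differences were those of Txnrd1 (-0.39, 95% confidence interval -1.12 to 0.33) and Hmox1 (-0.29, -0.86 to 0.28). Without Control mice 17 and 50, Hmox1 was at 0.06 and Txnrd1 at -0.18, and the largest difference was that of Srxn1 (0.37, adjusted P = 0.73). Hmox1 measured 2.18, 3.09, 3.50, 3.53 and 4.77 FPKM in PZH mice and Slc7a11 0.787, 0.926, 0.975, 1.25 and 1.34 FPKM. Of these values 1 of Hmox1 lay below and 2 of Slc7a11 lay above the Control range. Gclm ranged from 16.3 to 22.1 FPKM (0.19, -0.03 to 0.42) and Nfe2l2 from 50.6 to 80.1 FPKM (0.16, -0.23 to 0.54), which turned to -0.09 without these 2 Control mice. Of the other Nrf2 targets, control genes and antioxidant enzymes none was called.

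The comparison of PZH + AOM/DSS with AOM/DSS mice asks what PZH changes in the diseased colon. None of the 10 genes passed an adjusted P under 0.05, as was true of all but 1 (0.0063%) of 15878 genes tested. At an unadjusted P under 0.05 there were 5, namely Hmox1, Slc7a11 and Txnrd1 lower and Nfe2l2 and Nqo1 higher, against 11.7% of all genes. No gene of the 10 had groups without overlap, against 1.08% of all genes. By the study's criteria, on the log2(FPKM + 1) scale, 2 of the 10 were called, Hmox1 and Slc7a11, against 2.41% of all genes. By the ratio of mean FPKM, Slc7a11 (0.488) passed the fold of 2 and Hmox1 (0.502) just missed it. The 3 genes with lower values were those that rose in AOM/DSS mice, but the AOM/DSS mice enter either comparison, on opposite sides of the difference. No cell type marker was called here at an adjusted P under 0.05. At an unadjusted P under 0.05 by limma, 4 of 7 absorptive colonocyte markers were higher (median difference 1.07), 5 of 7 neutrophil markers tested were lower (-1.20) and 3 of 4 red cell markers tested were lower (-1.19). Their part in the values of the 5 genes was not tested.

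Hmox1 in PZH + AOM/DSS mice measured 6.08, 6.87, 7.15, 7.42 and 22.5 FPKM. The first 4 lay below every AOM/DSS mouse and mouse 35 lay among them. The ratio of the group means was 0.502, and the difference was -1.08 (SE 0.31, adjusted P = 0.356). Slc7a11 measured 0.825, 1.42, 2.22, 3.52 and 7.14 FPKM, again with mouse 35 highest and the other 4 below every AOM/DSS mouse, a difference of -1.01 (SE 0.36, adjusted P = 0.363). Without mouse 35 both were called, Hmox1 at -1.39 (adjusted P = 0.00553) and Slc7a11 at -1.31 (adjusted P = 0.0295). The share of all genes called without this mouse was not counted, so these calls cannot be set against genes at large.

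Mouse 35 also stood apart in cell type markers. Its absorptive colonocyte sum was 671 FPKM, against 1715 to 2422 in the other 4 mice of its group, and its macrophage sum was 777 FPKM, the highest of the 20 mice. Its squamous marker sum was 65.9 FPKM, against 2.55 to 9.32 in the other 4 mice. Its neutrophil sum was 365 FPKM, where mouse 36, with Hmox1 at 7.42 FPKM, had 324. Ly6g, a marker within this sum, had a mean of 146 FPKM in the group. Unlike most neutrophil markers it did not rise with AOM/DSS, with means of 176 FPKM in Control and 104 in AOM/DSS mice. These sums therefore cannot tell whether mice 35 and 36 held similar amounts of neutrophils. The part of these cells in the Hmox1 and Slc7a11 levels of mouse 35 was not tested. The plot of both genes beside 3 marker lists shows them by mouse.

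**Figure D4:**
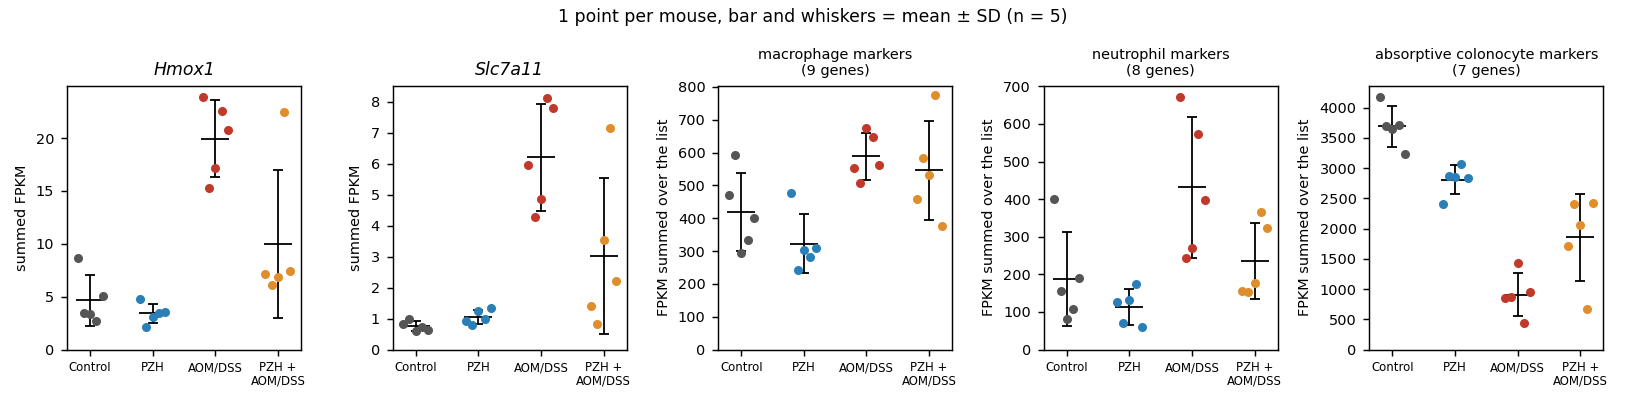
Summed FPKM of Hmox1 and Slc7a11 and FPKM summed over 3 marker lists (vertical axes) in 20 mice; each point is 1 mouse, the bar is the group mean and the whiskers are 1 SD. In PZH + AOM/DSS, mouse 35 is the highest point for Hmox1 (22.5), Slc7a11 (7.14) and macrophage markers (777) and the lowest for absorptive colonocyte markers (671).

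Txnrd1 in PZH + AOM/DSS mice was 48.6, 53.6, 68.8, 89.6 and 99.1 FPKM and overlapped both the AOM/DSS and the Control group (-0.59 against AOM/DSS, SE 0.22, adjusted P = 0.377). Nqo1 was 16.5, 16.8, 21.1, 26.9 and 27.2 FPKM (0.51, SE 0.23, adjusted P = 0.421). Nfe2l2 was 66.1, 67.9, 72.4, 75.4 and 78.0 FPKM (0.25, SE 0.10, adjusted P = 0.378). Its values had the smallest spread of the 4 groups, with an SD of 5.00 FPKM against 6.61 to 14.4. Gclm ranged from 18.6 to 26.0 FPKM (0.31, 95% confidence interval -0.00 to 0.63), Gclc from 27.5 to 31.3 FPKM (0.22, -0.10 to 0.53) and Srxn1 from 31.1 to 39.4 FPKM (0.00, -0.26 to 0.26). None of the 31 other targets, 9 control genes or 19 antioxidant enzymes was called.

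The comparison of PZH + AOM/DSS with PZH mice repeats the effect of AOM/DSS in mice on PZH, and it shares no mouse with AOM/DSS against Control. None of the 10 genes was called by limma at an adjusted P under 0.05, against 2.41% of 15626 genes, and 3 had an unadjusted P under 0.05, all higher, against 20.9% of all genes. Hmox1 was higher in every PZH + AOM/DSS mouse than in any PZH mouse, and was the 1 gene of the 10 without overlap, against 7.37% of all genes. It also was the 1 gene that met the study's criteria on the log2(FPKM + 1) scale, against 3.13% of all genes. By the ratio of mean FPKM, Hmox1 (2.93) and Slc7a11 (2.87, unadjusted P = 0.0444 by limma) both met them. The difference of Hmox1 was 1.18 (SE 0.31, adjusted P = 0.0748). It passed the threshold when all 20 mice shared one estimate of the spread (adjusted P = 0.0235), with sample quality weights (1.04, adjusted P = 0.0498) and without mouse 35 (0.86, adjusted P = 0.044). How many of all genes passed under these settings was not counted. Gclc (0.25, adjusted P = 0.162) and Slc7a11 (0.77, adjusted P = 0.225) were the other 2 with an unadjusted P under 0.05 by limma. Over the 10 genes, 8 (80%) had the same sign in both comparisons, as had 71.9% of the 15219 genes tested in both.

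In mice on PZH the other targets again held genes that fell, where 2.41% of all genes were called. Gstm3 (-1.15, adjusted P = 0.0457) and Gstm4 (-0.63, adjusted P = 0.0443) fell, and both had fallen in AOM/DSS against Control mice. These calls were lost in 11 and 10 of 16 alternatives (adjusted P up to 0.106 and 0.108). Of the antioxidant enzymes Sod3 (0.87, adjusted P = 0.0403) and the secreted peroxidase Gpx3 (0.80, adjusted P = 0.0271) rose, and the calls were lost in 8 and 5 of 16 alternatives.

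The difference between the 2 effects of AOM/DSS was tested as an interaction over all 20 mice. None of the 10 genes was called, against 0.0118% of 16926 genes, and 1 had an unadjusted P under 0.05, against 10.3% of all genes. This was Slc7a11, with a difference between the effects of AOM/DSS with and without PZH of -1.24 (SE 0.40, adjusted P = 0.358). With sample quality weights it was called (-1.50, adjusted P = 0.0443), as it was without mouse 35 (-1.54, adjusted P = 0.00711). The share of all genes called under these settings was not counted. For Hmox1 the interaction was -0.79 (95% confidence interval -1.66 to 0.09), and for Nqo1 0.56 (-0.04 to 1.16).

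Gpx2 (ENSMUSG00000042808, chr12:76792333-76795554), the glutathione peroxidase of the gut epithelium, was measured through its main transcripts, and which of them held more differed between mice. These are the protein-coding ENSMUST00000082431 and ENSMUST00000220569, which is annotated as a processed transcript. In 14 mice the coding transcript held more, with 87.4 to 245 FPKM, and in the other 6 the processed transcript held nearly all of the signal and the coding one at most 1.05 FPKM. In 4 of these 6 mice, 1 in each group, the gene reached 592 to 872 FPKM. They were Control mouse 37 (593), PZH mouse 46 (637), AOM/DSS mouse 23 (872) and PZH + AOM/DSS mouse 36 (592). PZH mouse 14 and AOM/DSS mouse 30 had the processed transcript without such a level, at 131 and 180 FPKM.

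The other 4 Control mice measured 89.6, 108, 132 and 172 FPKM, and the other 4 PZH mice 120 to 146 FPKM. The other 4 AOM/DSS mice measured 180, 193, 195 and 234 FPKM, and the other 4 PZH + AOM/DSS mice 104 to 248 FPKM. Over all 5 mice a group, Gpx2 was called in no comparison, with a difference of 0.68 in AOM/DSS against Control mice (SE 0.56, adjusted P = 0.424). From coding transcripts alone, this difference was -0.47 (SE 1.86, adjusted P = 0.886), which is too uncertain to give a direction. The main coding transcript was at most 1.05 FPKM in AOM/DSS mice 23 and 30 and in Control mouse 37. In the remaining mice it ranged from 190 to 230 FPKM for AOM/DSS and from 87.4 to 105 FPKM for Control. Where it led in the groups on PZH, it ranged from 100 to 245 FPKM for PZH + AOM/DSS and from 105 to 137 FPKM for PZH, with overlap. These mice, and the sets of 4 above, were picked by their Gpx2 values, so the ranges are no test of a difference between groups.

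Sod2 (ENSMUSG00000006818, chr17:13006846-13040063), the superoxide dismutase of mitochondria, had a value for 1 of its 8 annotated transcripts. It was 20.9 to 27 FPKM in 15 mice and 2.44 to 4.79 FPKM in the other 5, namely Control mice 17 and 37, PZH mice 8 and 46 and AOM/DSS mouse 30. The deposited tables also list 22252 transcripts that the authors assembled from the reads and that carry no gene name. Among the 9062 of these with a mean above 1 FPKM, the one whose values fell most as those of Sod2 rose (Pearson r = -0.93 over 20 mice, chosen after the values were seen) was at 18.3 to 26.9 FPKM in the 5 mice with low Sod2. In the other 15 it was at 0 in 12 and at most 5.17 FPKM.

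The sum of Sod2 and this transcript was 20.9 to 29.4 FPKM in all 20 mice. A narrow range follows in part from choosing the transcript by its opposite values, and the next transcript in that order had a Pearson r of -0.876. Group means of the sum were 26.0 ± 1.56 FPKM for Control, 25.8 ± 2.27 for PZH, 24.5 ± 2.22 for AOM/DSS and 23 ± 2.59 FPKM for PZH + AOM/DSS mice (SD, n = 5). Whether the transcript belongs to Sod2 was not tested, since the tables give it no position. Sod2 was called in no comparison with or without it, and the difference in AOM/DSS against Control mice was 0.39 (SE 0.66) without it and -0.08 with it.

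**Figure D5:**
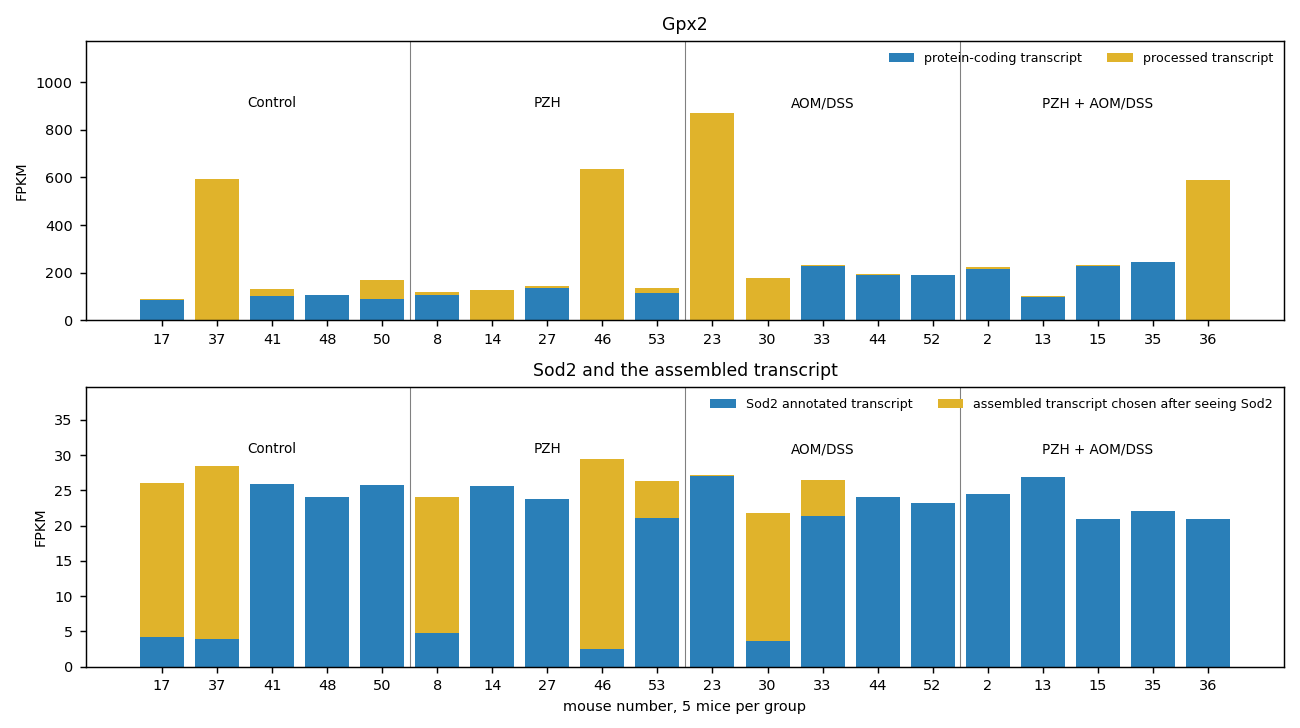
FPKM (vertical axis, stacked bars from 0) of 2 Gpx2 transcripts and of Sod2 with 1 unnamed assembled transcript in each of the 20 mice (horizontal axis, mouse numbers by group). The 4 tall Gpx2 bars, at 592 to 872, consist of the processed transcript, and the 5 mice with low Sod2 are those in which the assembled transcript is at 18.3 to 26.9.

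The share of each gene held by its main transcript, defined as the one with the highest mean, was compared for 8 genes in 4 comparisons. None of the 32 exact two-sided permutation tests passed an adjusted P under 0.05. The lowest unadjusted P of these tests was 0.0397, for Nfe2l2 in PZH + AOM/DSS against PZH (adjusted P = 0.466). Groups this small limit how low an exact P can be. After adjustment over 32 tests, a lone difference could not have passed, however clear. The lack of calls therefore cannot show whether transcript shares differed between groups. The main transcript held 93.5 to 99.0% of Nfe2l2, 89.1 to 99.6% of Hmox1 and 97.8 to 100% of Gclc. It held 83.4 to 97.0% of Gclm, 93.6 to 99.8% of Srxn1 and 82.3 to 99.2% of Slc7a11, so that of the 8 genes Txnrd1 and Gpx2 had shares that varied widely between mice.

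Within groups the 10 genes did not vary as one. Over the 45 pairs, Pearson's r of deviations from the group means in 20 mice had a median of 0.02. It was highest between Hmox1 and Slc7a11 (0.66) and lowest between Nfe2l2 and Hmox1 (-0.66). Among 14130 genes with a mean above 1 FPKM, those most like Nfe2l2 were Cdx2 (r = 0.92), the homeobox factor of intestinal epithelium, Zbtb10 (0.90) and Hoxaas3 (0.83). Those most like Hmox1 were Ddit4 (0.89), a stress-induced inhibitor of mTORC1, the keratin gene Krt23 (0.88) and Cers3 (0.88), a ceramide synthase of the epidermis. For Nqo1 the most alike were Rgs5 (0.78), Ces1f (0.77) and Mab21l2 (0.77), for Gpx2 Sys1, Lxn and Nipsnap3b (0.78 each), and for Sod2 Slc9a5 (0.77), Trim32 (0.76) and Rps13-ps1 (0.74). These are descriptions over mice that differed in depth and tissue composition within groups. The Control mice with high squamous markers had the lowest Nfe2l2 values of their group. PZH + AOM/DSS mouse 35, which stood apart in cell type markers, had the highest Hmox1 and Slc7a11 values of its group. The part of such mice in these r values was not tested.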

How the data were processed

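RNA-Seq of colon tissue from 20 mice was used. The authors removed rRNA, checked reads with FastQC v0.11.5, filtered them with NGSQC v2.3.3, aligned them to mm10 with HISAT2 v2.1.0 and quantified transcripts with StringTie v1.3.3b. The deposited values were FPKM for 118434 transcripts per mouse, without counts. The FPKM of 95984 transcripts found in GENCODE M21 (GRCm38) were summed per gene, and the 22252 assembled transcripts were left out. A gene entered a test if 5 or more of the mice compared reached 0.5 FPKM, and was tested as log2(FPKM + 1) with limma 3.58.1 (trend, R 4.3.3) on the 10 mice of each comparison, or all 20 for the interaction. P-values were adjusted by Benjamini-Hochberg over all genes tested. Transcript shares were compared by exact permutation tests. The method was tested on simulated data. The authors called transcripts with DESeq v1.28.0. The 10 genes, the gene lists and the tests were chosen with earlier results of these data known. Genes named from a list had an adjusted P under 0.05, apart from Keap1, Bach1 and Mafg, which are always given, and up to 4 per list and comparison were to be named; the other called targets were named after their values were seen. The genes most alike were the 3 with the highest r. The labels name no batch. Alternatives were another pseudocount, filter, scaling, sample quality weights, coding transcripts only, all mice in one model and each mouse left out.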

Additional observations from a re-analysis of the deposited data

Results flagged for a closer look

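Single mice lay far from the other 4 of their group in 6 of 48 group values examined (10 genes and the main transcript share of Txnrd1 and Gpx2, in 4 groups each). The cut-off would flag about 2.4 of 48 independent values with a normal spread. The values here are not independent, since Gpx2 enters as a level and as a share, so 2.4 is only a rough guide. Hmox1 was at 22.5 FPKM in PZH + AOM/DSS mouse 35, while the other 4 were at 6.08 to 7.42. Gpx2 was at 593 FPKM in Control mouse 37, at 637 in PZH mouse 46 and at 872 in AOM/DSS mouse 23, each above the other 4 of its group. In PZH + AOM/DSS mouse 36 the processed transcript of Gpx2 held 99.5% of the gene. Sod2 was at 3.56 FPKM in AOM/DSS mouse 30, and the other 4 mice of the group were at 21.3 to 27 FPKM.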

How the results depend on the processing

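Of 925 values of the 10 genes under alternative settings, 850 kept their direction and side of the threshold, 9 came to pass it, 2 no longer did and 64 changed sign, and the cause was not tested. The calls of Hmox1 (1.83 to 2.31) and Slc7a11 (1.91 to 2.86) in AOM/DSS against Control mice held under every alternative run. The number of genes called there was 2 to 4 with each mouse left out in turn. It was 0 to 2 in PZH + AOM/DSS against AOM/DSS, 0 to 1 in PZH + AOM/DSS against PZH and 0 to 1 in the interaction, each upper value being without PZH + AOM/DSS mouse 35. Sample quality weights gave 1 in PZH + AOM/DSS against PZH and 1 in the interaction, and all 20 mice in one model gave 1 in PZH + AOM/DSS against PZH. The share of all genes called was counted with the main settings alone, so these counts have no such share beside them. The sign changes below concern differences that were not called. Median-of-ratios scaling gave -0.097 for Nfe2l2, -0.096 for Gclc and -0.063 for Gclm in AOM/DSS against Control, -0.048 for Nqo1 in PZH + AOM/DSS against PZH and, in PZH + AOM/DSS against AOM/DSS, 0.03 for Srxn1; it moved the median of all genes in AOM/DSS against Control from 0.094 to 0.007. Sample quality weights gave -0.022 for Nfe2l2 in AOM/DSS against Control, 0.012 for Nqo1 in PZH against Control and 0.026 for Srxn1 in PZH + AOM/DSS against PZH. Coding transcripts alone gave -0.47 for Gpx2 in AOM/DSS against Control, -0.857 in PZH against Control, 2.162 in the interaction and 1.305 in PZH + AOM/DSS against AOM/DSS, where Srxn1 was at 0.02. Both alternatives that follow were chosen after seeing the data. Without Control mice 17 and 50, Nfe2l2 was at -0.225 in AOM/DSS against Control, PZH against Control gave -0.086 for Nfe2l2, 0.059 for Hmox1, 0.039 for Gclc and -0.168 for Gpx2, and the interaction of Gpx2 was 0.012. With the assembled transcript added, Sod2 was at -0.084 in AOM/DSS against Control, -0.09 in PZH + AOM/DSS against AOM/DSS, -0.161 in PZH + AOM/DSS against PZH and -0.077 in the interaction. With each mouse left out in turn, AOM/DSS against Control ranged from -0.078 to 0.108 for Nfe2l2, -0.079 to 0.134 for Gclc and -0.049 to 0.095 for Gclm. PZH against Control ranged from -0.135 to 0.065 for Nqo1, -0.079 to 0.032 for Gclc, -0.335 to 0.571 for Gpx2 and -0.496 to 0.334 for Sod2. PZH + AOM/DSS against AOM/DSS ranged from -0.072 to 0.052 for Srxn1, -0.481 to 0.267 for Gpx2 and -0.053 to 0.602 for Sod2. PZH + AOM/DSS against PZH ranged from -0.104 to 0.1 for Nqo1 and -0.04 to 0.055 for Srxn1. The interaction ranged from -0.371 to 0.01 for Txnrd1 and -0.728 to 0.178 for Gpx2. Of 876 values of list genes called, 145 no longer passed the threshold and none changed sign. FPKM carry no counts, so no counting error could be given for low levels such as those of Slc7a11 in Control mice.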
